A study of Mus musculus with 12 samples.

Results

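The cytosolic ribosome is built from ribosomal RNA and ribosomal proteins, and the genes described here are the mouse genes named for those proteins. They were chosen by name alone, as symbols that start with Rpl (large subunit) or Rps (small subunit) and go on with a number, which may carry the suffix a, x, l or l1, together with Rpsa and the stalk genes Rplp0, Rplp1 and Rplp2. This gave 83 of 39174 gene identifiers, 51 of the large and 32 of the small subunit. GENCODE M21 annotates 82 of them as protein coding and Rps12l1 as a processed pseudogene. The name rule leaves out, among others, Rps3a1, Fau, Gnb2l1 (Rack1) and Rpl36al, which also belong to the ribosome or encode one of its proteins. The genes lie on 19 chromosomes, 15 of them on chromosome 7 and 4 (Rpl10, Rpl39, Rpl36a and Rps4x) on the X chromosome.

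RNA was sequenced from 12 libraries of primary motoneuron cultures of FVB mice, 3 in each of 4 groups. The groups were Smn-/-;SMN2 with 0.5 µM R-Roscovitine, Smn-/-;SMN2 untreated, Smn+/+;SMN2 with 0.5 µM R-Roscovitine and Smn+/+;SMN2 untreated. All animals carried SMN2, the human gene that yields little full-length SMN protein, so that the Smn-/- cultures model spinal muscular atrophy. R-Roscovitine is a purine inhibitor of cyclin-dependent kinases that also slows the closing of presynaptic calcium channels. No age, duration of treatment or number of animals is given in the sources used here. Whether the 3 libraries of a group were grown separately is not stated, and every p-value below therefore sets differences against the spread between libraries alone, which may be technical.

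A ribosomal protein is made in the cytoplasm, imported into the nucleolus and placed on the ribosomal RNA, where subunits are assembled before export. Ribosomal protein mRNAs are abundant in nearly every cell, and in neurons they are also found in axons and dendrites. They share a start site within a pyrimidine-rich stretch, so that the transcript begins with a terminal oligopyrimidine tract through which the mTOR pathway controls their translation. Such control acts on translation, which transcript levels do not measure. Mammalian genomes also hold many processed pseudogenes of these genes, intronless copies whose sequence is close to that of the mRNA.

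The sequence around the start is shown first, because the pyrimidine-rich start is what these genes are known for. RefSeq promoter sequences (GRCm38.p6, 250 bases before to 50 after the annotated start) were matched to 62 of the 83 genes, in 74 entries. The motif CTTTC on the gene's strand, within 15 bases to either side of the start, was in 23.0% of the 74 entries and in 4.05% of all 32851 entries. CTTCC in the same window was in 18.9% of the entries of ribosomal protein genes and 6.63% of all. One motif or the other was in 35.1% of the entries of ribosomal protein genes and 10.3% of all, so most entries held neither of these letters at the start. CCGGAAG on either strand, the core bound by ETS factors such as GABP, was somewhere in the 300 bases of 35.1% of the entries of ribosomal protein genes and 8.86% of all. Its reverse complement begins with CTTCC, so these searches can find the same bases. TATAAA on either strand was in 9.46% of the entries of ribosomal protein genes and 13.6% of all. The windows below run from 60 bases before the annotated start to 30 bases from it, on the gene's strand, with every CTTTC and CTTCC in capitals, and belong to genes whose levels are described further on.
Rpl15 (chr14:18270957-18271046, minus strand): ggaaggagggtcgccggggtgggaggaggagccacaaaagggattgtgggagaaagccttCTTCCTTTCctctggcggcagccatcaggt
Rps7 (chr12:28635924-28636013, minus strand): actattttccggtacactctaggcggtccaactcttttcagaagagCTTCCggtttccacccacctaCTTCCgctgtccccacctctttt
Rps27 (chr3:90213619-90213708, minus strand): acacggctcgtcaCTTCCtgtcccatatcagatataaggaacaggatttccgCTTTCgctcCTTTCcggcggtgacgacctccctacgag
Rps24 (chr14:24490618-24490707, plus strand): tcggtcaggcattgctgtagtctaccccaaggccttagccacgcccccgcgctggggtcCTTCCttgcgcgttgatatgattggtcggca
Rplp2 (chr7:141447591-141447680, plus strand): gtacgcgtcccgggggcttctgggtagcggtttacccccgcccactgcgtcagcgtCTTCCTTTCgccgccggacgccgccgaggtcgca
Rps4x (chrX:102189362-102189451, minus strand): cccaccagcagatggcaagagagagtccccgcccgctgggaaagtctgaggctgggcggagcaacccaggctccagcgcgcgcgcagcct
Rps27l (chr9:66946026-66946115, plus strand): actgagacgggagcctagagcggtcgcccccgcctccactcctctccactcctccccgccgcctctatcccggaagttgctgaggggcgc
The windows of Rpl15, Rps7, Rps27, Rps24 and Rplp2 hold a motif near the annotated start. Those of Rps4x and Rps27l hold neither motif in this window. Rps27 encodes a small subunit protein and Rps27l its paralogue, so these related genes differ in this stretch. The RefSeq start of Rpl15 lies 405 bases downstream of the gene's start in the expression tables, and that of Rplp2 281 bases.

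The genotype label was checked on Smn1 (chr13:100124852-100137690), the mouse gene for SMN, a protein needed to load the core proteins onto spliceosomal small nuclear RNAs. Levels here and below are FPKM, which divides fragments by transcript length and library depth, after scaling between libraries. Smn1 was at 5.02 to 7.40 in treated and 6.28 to 8.69 in untreated Smn-/- libraries, against 38.6 to 44.9 in treated and 29.6 to 49.8 in untreated Smn+/+ libraries. The Smn-/- and Smn+/+ ranges were apart with and without treatment, where 3 against 3 libraries can give no exact two-sided permutation p below 0.10. Depth, estimated from the steps between low values, was 19.5 to 28.7 M reads. The half-width of Cufflinks' interval, as a share of the value, had a median of 4.50% to 4.99% over the ribosomal protein genes of a library. This interval covers counting and assignment error only. Of 11 motoneuron markers found, 4 (Foxp1, Chodl, Nefh and Prph) were tested, and the summed markers were at 30.6 to 38.5 FPKM in treated and 29.0 to 35.3 in untreated Smn-/- libraries, against 34.4 to 52.8 in treated and 38.5 to 51.8 in untreated Smn+/+ libraries. Of the others, Chat, Mnx1, Isl1, Isl2, Lhx3, Slc5a7 and Lhx4, none reached 1 FPKM in any library, and Mnx1 was listed at 0 in all 12, so the markers that define motoneurons were at or near 0.

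Of the 83 genes, 80 reached 1 FPKM in at least 3 libraries and were tested, 48 of the large and all 32 of the small subunit. The other 3 are paralogues known for expression in testis or muscle: Rpl10l was listed at 0 in every library, Rpl3l reached at most 0.24 FPKM and Rpl39l at most 0.46. The median level of the tested genes over the 12 libraries was 176 FPKM for the large subunit and 323 for the small subunit. A mean of 100 FPKM or more was found for 37 of 48 large and 31 of 32 small subunit genes. The proteins of a ribosome are present in nearly equal number, whereas the levels listed at the genes spanned 4.44 FPKM (Rpl24) to 3639.8 (Rpl41) in the large subunit, and the lowest small subunit gene, Rps2, was at 14.0.

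The highest large subunit genes were Rpl41, which encodes a very short basic peptide, Rpl32 with a mean of 1185 FPKM and Rplp1 of the ribosomal stalk with 979.7. In the small subunit Rps26, which encodes a protein at the mRNA exit channel, had a mean of 1070.1. Rpl41 was at 3637 to 3954 FPKM in treated and 3425 to 3797 in untreated Smn-/- libraries, against 2652 to 3668 in treated and 2841 to 5025 in untreated Smn+/+ libraries. Its lowest and its highest value were both in Smn+/+ libraries. Within groups, the coefficient of variation had a median of 9.65% over large and 10.3% over small subunit genes, against 12.1% over the 1017 tested genes with a mean of 100 FPKM or more.

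**Figure D1:**
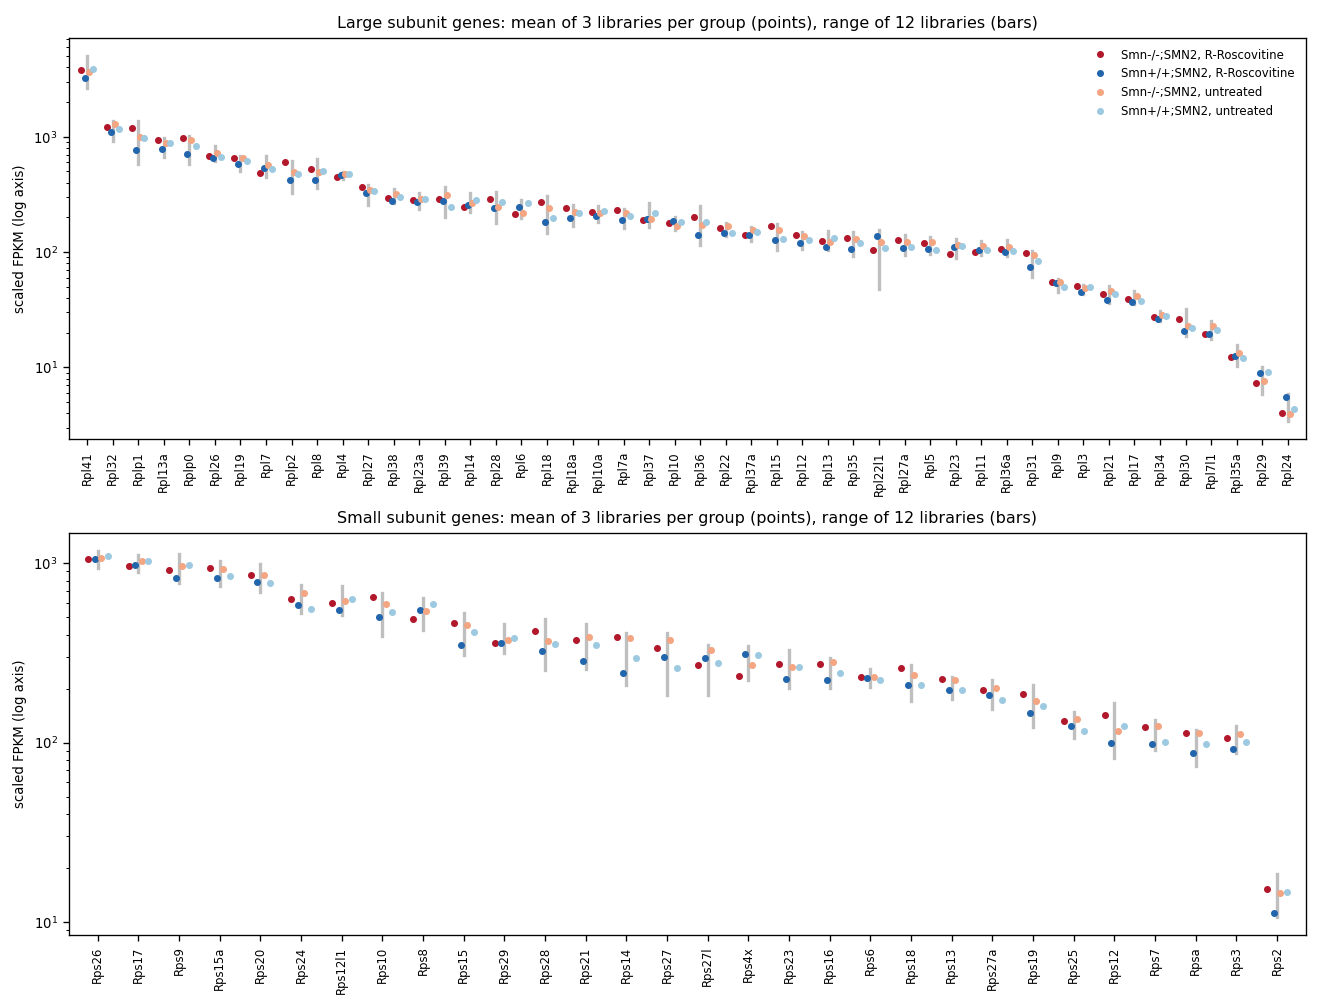
Mean scaled FPKM on a log axis of large (upper panel) and small (lower panel) subunit genes that were tested and are reported by name, ordered by level; points are means of 3 libraries per group and grey bars run from the lowest to the highest of 12 libraries. Large subunit genes run from Rpl41 at 3639.8 FPKM to Rpl24 at 4.44, and the small subunit panel ends with Rps2 at 14.0.

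A low level at a gene did not always mean a low level of its sequence. The tables list 222 loci that carry a ribosomal protein's name with the pseudogene suffix ps, and 135 of them had a mean of 1 FPKM or more. Such loci existed for 54 of the 83 genes, and for 33 genes their summed FPKM was above that of the gene itself. In FPKM as deposited, Rpl31 was at 87.6 at its own locus and at 1597 over 22 pseudogene loci, which left it 5.20% of the sum. Rpl38 was at 299 FPKM, against 2267 at Rpl38-ps2 alone. Rps12, Rps13 and Rpsa held 8.74%, 9.31% and 12.5% of their sums, and Rps2, the lowest small subunit gene, 16.9%. The lowest large subunit gene, Rpl24, has no named pseudogene locus, and Rpl29, at 8.26 FPKM, held 67.0% of its sum. Among the genes with named pseudogene loci the median share of the gene was 35.3%. A read that fits a gene and its copy equally well can be given to either, so a level at these genes is uncertain, and the pseudogene entries are not evidence that the copies are transcribed. Pseudogenes with other names were not counted. Rps14, Rps7, Rplp2, Rps4x, Rps27, Rps27l, Rpl22l1, Rpl4, Rpl6 and Rpl41 are among the 29 genes without a named pseudogene locus.

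**Figure D2:**
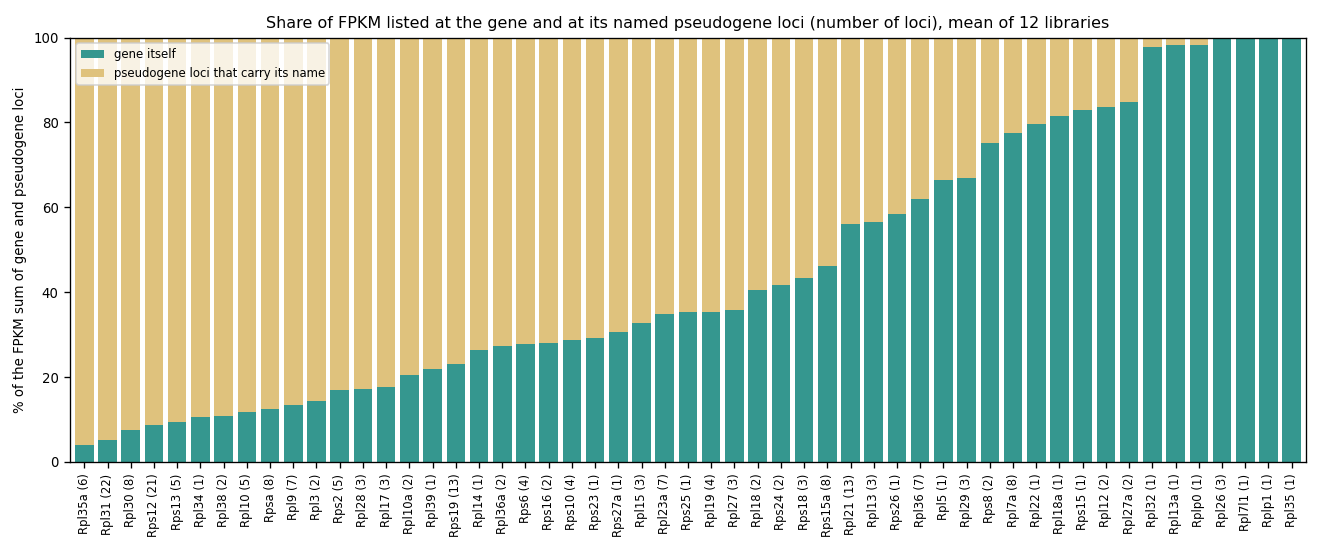
Share of the FPKM sum of a gene and the pseudogene loci that carry its name, as the mean of 12 libraries, for genes with such loci that are reported by name (number of loci in brackets); the lower part of each bar is the gene, the upper part its pseudogene loci. The gene's share starts at 3.97% for Rpl35a and 5.20% for Rpl31 and is 98.3% for Rplp0.

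As a share of the library's FPKM, large subunit genes made up 2.31% ± 0.0310 in treated and 2.29% ± 0.0165 in untreated Smn-/- cultures, against 2.12% ± 0.198 in treated and 2.35% ± 0.264 in untreated Smn+/+ cultures (SD, n = 3 each). Small subunit genes made up 2.0% ± 0.0306 and 2.05% ± 0.0330 in treated and untreated Smn-/- cultures, against 1.93% ± 0.161 and 2.05% ± 0.109 in treated and untreated Smn+/+ cultures. The ranges of the genotypes overlapped for both subunits, with and without treatment. The spread of these shares between libraries was several times wider in Smn+/+ than in Smn-/- cultures. The denominator also differed. The single feature Gm26924 took 3.57% to 5.05% of the FPKM in treated and 4.52% to 4.85% in untreated Smn-/- libraries, against 2.62% to 3.39% in treated and 2.83% to 3.81% in untreated Smn+/+ libraries. Mitochondrially encoded genes took 21.3% ± 2.11 in treated and 20.9% ± 1.91 in untreated Smn-/- libraries, against 20.6% ± 0.647 in treated and 18.5% ± 0.849 in untreated Smn+/+ libraries (SD, n = 3 each), with overlapping ranges. With these features out of the denominator, the large subunit share was 3.06% to 3.19% in treated Smn-/- libraries, against 2.51% to 2.99% in treated Smn+/+ libraries, without overlap. The other 3 comparisons of shares still overlapped. The untreated small subunit share then had an SD of 0.127 in Smn+/+ and 0.106 in Smn-/- cultures. For the remaining shares the SD was 0.191 to 0.324 in Smn+/+ and 0.0613 to 0.0876 in Smn-/- cultures.

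The libraries 1 of the Smn+/+ cultures stood apart. In the treated Smn+/+ library 1 the median ribosomal protein gene lay 0.23 below its mean over the 12 libraries on the log2 scale, and 49 of 80 genes (61.3%) had their lowest value there, against 15.6% of all tested genes. The untreated Smn+/+ library 1 was split: 25 of 80 genes (31.3%, against 14.8% of all) had their highest and 13 (16.3%, against 17.8% of all) their lowest value in it. Highest there were Rplp1, Rpl41, Rpl8, Rpl36, Rps15 and Rps21 among others, and lowest were Rps27, Rps27l, Rps24, Rps25, Rpl39, Rpl22l1 and Rpl5 among others. The untreated Smn-/- library 1 also stood apart: it held the highest value of another 25 genes (31.3%, against 11.5% of all), with a median of 0.12 above the mean. No other library held the lowest value of more than 5 genes. Where leaving out Smn+/+ libraries 1 moved a named gene's difference by over 1.5 times or turned its sign, the value without them is given for these genes.

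**Figure D3:**
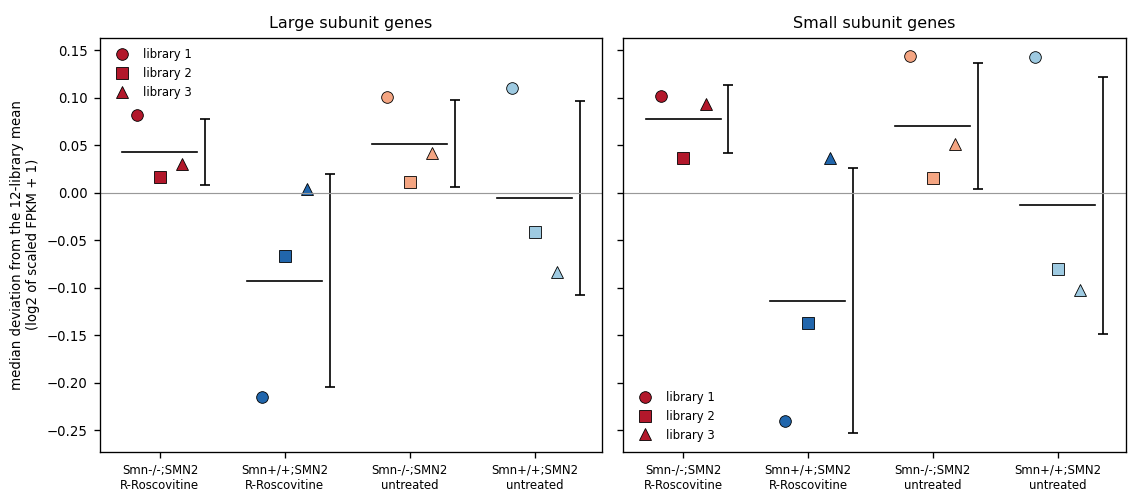
Median deviation of the large (left) and small (right) subunit genes from their mean over 12 libraries, in log2 of scaled FPKM + 1, for each library; lines are means of 3 libraries and bars beside them 1 SD. In both panels the treated Smn+/+ library 1 is the lowest of 12, and the Smn+/+ groups have wider bars than the Smn-/- groups.

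The genotypes were compared first without treatment, with limma on log2(scaled FPKM + 1) and Benjamini-Hochberg adjustment over all 14982 tested genes. No ribosomal protein gene passed an adjusted p of 0.05, where 0.00667% of all tested genes did, a single gene, Smn1. At an unadjusted p under 0.05, 7 of 80 genes (8.75%) passed, against 14.1% of all. Of the 80 genes, 58 were higher in Smn-/- cultures, with a median log2 difference of 0.08 over the 48 large and 0.14 over the 32 small subunit genes, beside a median of -0.0063 over all tested genes. In 9 genes (11.2%) all 3 Smn-/- libraries were above all 3 Smn+/+ libraries, against 9.77% of all tested genes, and in Rpl6 and Rpl29 (2.50%) all were below, against 10.1%. The count of higher genes was thus near the background. Without the untreated Smn+/+ library 1, left out after seeing the data, 36 of 80 genes (45.0%) did not overlap upwards, 3 libraries against 2. The share of all tested genes was then 15.5%, and no such count was made without any other library. On leaving out each library in turn, the median ran from 0.036 to 0.13 over large and from 0.069 to 0.19 over small subunit genes. With libraries rescaled to a common FPKM sum, which put the median of all tested genes at -0.07, 44 of 80 genes were higher and 5 (6.25%, against 6.2% of all) did not overlap upwards. The median of the 80 genes stood 0.09 above that of all genes under this scaling and 0.10 above it otherwise.

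With R-Roscovitine in both genotypes, again no ribosomal protein gene passed, beside 0.00667% of all tested genes, but 26 of 80 (32.5%) had an unadjusted p under 0.05, against 13.0% of all. Of these, 24 were higher and 2, Rps4x and Rpl24, lower in Smn-/- cultures. The median log2 difference was 0.14 over large and 0.17 over small subunit genes, beside -0.02 over all tested genes, and 62 of 80 genes were higher. In 30 genes (37.5%) the Smn-/- libraries all lay above the Smn+/+ libraries, against 9.55% of all tested genes, and in Rpl22l1, Rpl23, Rpl24 and Rps4x (5.00%) all lay below, against 7.99%. Without the Smn+/+ libraries 1 the upward count was again 30, beside 13.5% of all, while 56 genes were higher and the median over large subunit genes was 0.06. The median over all 80 genes was then 0.09, against 0.15 with all libraries. After rescaling to a common FPKM sum it was 19 (23.8%), beside 6.57%, with 52 of 80 genes higher and the median of all tested genes at -0.09. In bulk cultures, more cells of a kind with high ribosomal protein levels and more such RNA per cell cannot be told apart.

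**Figure D4:**
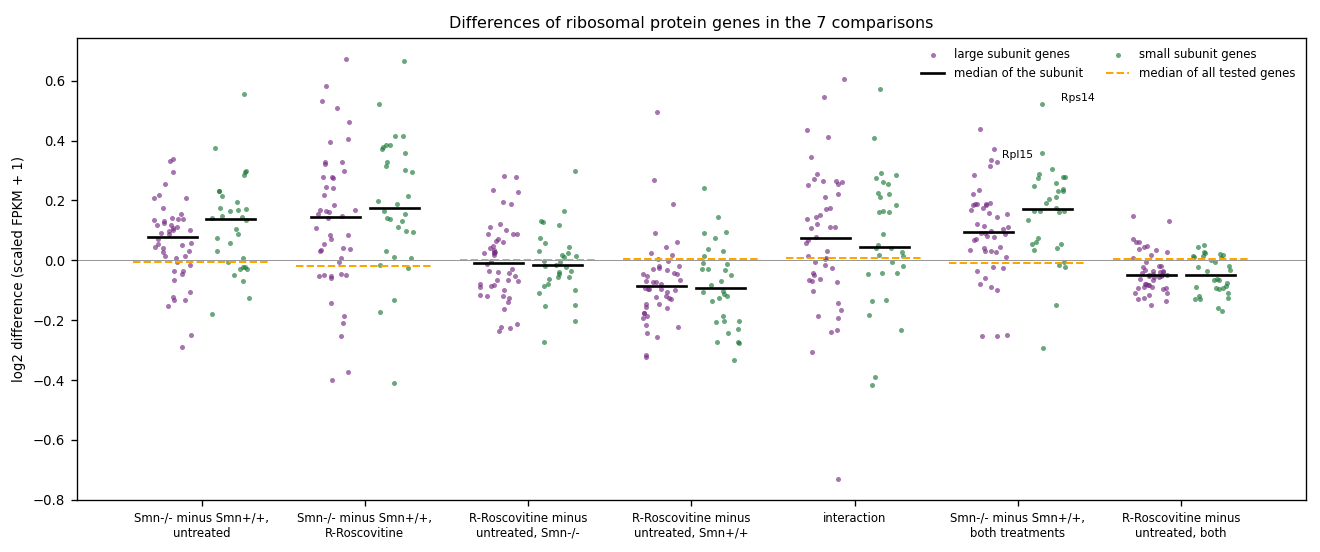
Log2 differences of scaled FPKM + 1 of single ribosomal protein genes (points; large subunit left, small subunit right in each pair) in the 7 comparisons, with the median of each subunit (black) and of all 14982 tested genes (dashed). In the Smn-/- minus Smn+/+ comparisons both subunit medians lie above the median of all genes, and Rps14 and Rpl15 are the genes with an adjusted p under 0.05.

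Averaged over treatments, 2 of 80 genes (2.50%) rose in Smn-/- cultures, Rps14 and Rpl15, and none fell. Other settings called genes lower: Rps4x and Rpl6 fell after rescaling to a common FPKM sum, where Rpl15 was not called. Over all tested genes 4.83% passed in either direction and 3.03% upwards, so the share of ribosomal protein genes called was not above the background. An unadjusted p under 0.05 was found for 28 of 80 genes (35.0%), against 23.2% of all, and 65 of 80 genes were higher. Over all tested genes, treated and untreated libraries of 1 number deviated together within a genotype. The ribosomal protein genes did not always do so. Their median deviations, untreated and treated, were 0.12 and -0.23 in Smn+/+ libraries 1 and -0.10 and 0.02 in libraries 3. In Smn+/+ libraries 2 they were -0.06 and -0.10. In Smn-/- libraries 1, 2 and 3 both values were positive, at 0.12 and 0.09, 0.01 and 0.03, and 0.04 and 0.05. These deviations are from the mean over 12 libraries and so include the genotype difference. With 1 mean per same-numbered pair, 3 against 3, no ribosomal protein gene passed and a single gene in all did.

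Rps14 (ENSMUSG00000024608, chr18:60774510-60778546) encodes a protein of the small subunit's platform, and loss of a copy of the human gene underlies the anaemia of a form of myelodysplastic syndrome. With treatment it was at 406, 357 and 399.7 FPKM in Smn-/- libraries, against 208, 258 and 268 in Smn+/+ libraries. Without treatment it was at 410.1, 351 and 386 in Smn-/- libraries, against 364, 279 and 251 in Smn+/+ libraries. The genotypes did not overlap with treatment, and without it the untreated Smn+/+ library 1, at 364, lay above the lowest Smn-/- library. The log2 difference was 0.67 ± 0.15 (SE) with and 0.37 ± 0.15 without treatment, and 0.52 ± 0.10 averaged, with limma's adjusted p of 0.152, 0.287 and 0.0223. Over 25 alternatives the averaged adjusted p ran from 0.00438 to 0.163, the highest with pair means. The call ended without any of 6 libraries (untreated Smn-/- 1 or 3, treated Smn-/- 1 or 3, untreated Smn+/+ 2, treated Smn+/+ 1), where the adjusted p was 0.0538 to 0.0715.

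Rpl15 (ENSMUSG00000012405, chr14:18267823-18271391), whose start is shown above, encodes a large subunit protein whose human gene is mutated in some families with Diamond-Blackfan anaemia. It was at 175, 165 and 166 FPKM in treated Smn-/- libraries, against 104, 139 and 143 in treated Smn+/+ libraries. Untreated Smn-/- libraries had 154, 147 and 165 FPKM, against 132, 134 and 123 in untreated Smn+/+ libraries. All 6 Smn-/- libraries were above all 6 Smn+/+ libraries. The averaged log2 difference was 0.33 ± 0.09, with an adjusted p of 0.0495, just inside the threshold, and 0.0271 to 0.191 over 25 alternatives. The call ended on leaving out any library but the treated Smn-/- 2 or the treated Smn+/+ 3, at adjusted p of 0.0561 to 0.133. Summed with its 3 named pseudogene loci, the gene differed by 0.32 ± 0.10 with an adjusted p of 0.0706 by limma. With all such sums, the ribosomal protein genes called were Rps14 and Rps2.

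Rpl15 was 1 of 5 genes (6.25%) whose Smn-/- libraries lay above the Smn+/+ libraries in both treatments, against 2.98% of all tested genes; none lay below in both, against 2.28%. Rps7 (chr12:28630847-28635953), a small subunit protein that joins early in assembly, was at 130.2, 115 and 122 FPKM in treated Smn-/- libraries, against 90.6, 95.2 and 109.5 in treated Smn+/+ libraries. Without treatment it was at 134, 110.2 and 127 in Smn-/- libraries, against 106, 94.2 and 101 in Smn+/+ libraries. Every Smn-/- value was thus above every Smn+/+ value, and the averaged difference of 0.31 ± 0.08 had an adjusted p of 0.0507, just outside the threshold. Rps7 has no named pseudogene locus. Rpsa (chr9:120127766-120132369), a small subunit protein also known as a laminin receptor precursor, was at 113, 112 and 114 FPKM in treated Smn-/- libraries, against 74.1, 92.0 and 95.1 in treated Smn+/+ libraries. Untreated Smn-/- libraries had 114, 109 and 117 FPKM, against 106, 100.1 and 90.1 in untreated Smn+/+ libraries. The averaged difference of Rpsa was 0.29 ± 0.08 with an adjusted p of 0.0611. Rpl22 and Rps13 were the remaining ones, at averaged differences of 0.17 ± 0.07 and 0.19 ± 0.07, and for Rps13 the treated groups were separated only by 221 against 220.3 FPKM.

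The stalk of the large subunit, formed by Rplp0, Rplp1 and Rplp2, recruits elongation factors and stimulates their GTPase. Rplp0 (chr5:115559467-115563727) was at 1021, 941 and 939 FPKM in treated Smn-/- libraries, against 575, 751 and 799 in treated Smn+/+ libraries. Rplp1 was at 1302, 1186 and 1105 FPKM in treated Smn-/- libraries, against 584, 816 and 880.3 in treated Smn+/+ libraries. Rplp2 was at 616, 589 and 596 FPKM in treated Smn-/- libraries, against 328, 450.1 and 482 in treated Smn+/+ libraries. The groups did not overlap for any of the 3 genes, and the log2 differences were 0.46 ± 0.14, 0.67 ± 0.21 and 0.53 ± 0.18, with limma's adjusted p of 0.226, 0.232 and 0.251. Without treatment all 3 overlapped: Rplp1 was at 1004, 889 and 1067 FPKM in Smn-/- libraries, against 1357, 866 and 699.9 in Smn+/+ libraries, whose library 1 was the highest of all 12. The untreated differences were 0.21, 0.07 and 0.10. Without the Smn+/+ library 1 they were 0.33, 0.34 and 0.29, and without the Smn+/+ library 3 those of Rplp1 and Rplp2 were -0.14 and -0.06. The interaction of genotype and treatment, 0.25 ± 0.20, 0.60 ± 0.30 and 0.43 ± 0.25, did not pass for any of them, and was -0.02, 0.15 and 0.07 without the Smn+/+ libraries 1.

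Other genes stood out in a single treatment. Rpl18, of the large subunit, was at 279, 236 and 304 FPKM in treated Smn-/- libraries, against 146, 188 and 217 in treated Smn+/+ libraries, a log2 difference of 0.58 ± 0.18 with an adjusted p of 0.226 by limma. The gene holds 40.6% of the sum with its pseudogene loci. Rps27, a zinc finger protein of the small subunit, had the lowest p without treatment, at 410.5, 352 and 357 FPKM in Smn-/- libraries, against 184, 271 and 326 in Smn+/+ libraries. The groups did not overlap, and the difference of 0.55 ± 0.18 had an adjusted p of 0.230 by limma. The lowest value was that of the Smn+/+ library 1, without which the difference was 0.33. Rps24, at 761, 635 and 659.9 FPKM in untreated Smn-/- libraries, was above the 528, 560.0 and 583 of untreated Smn+/+ libraries, a difference of 0.30 ± 0.10 with an adjusted p of 0.263. Rpl39 at the exit tunnel differed by 0.34 ± 0.15, with overlap, and by 0.19 without that library.

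A few genes were lower in Smn-/- cultures. Rps4x (chrX:102184941-102189394), the X-linked gene of a small subunit protein, was at 229, 253 and 224 FPKM in treated Smn-/- libraries, against 304, 319 and 314 in treated Smn+/+ libraries. Untreated Smn-/- libraries had 283, 279.9 and 248 FPKM, against 252, 326 and 347 in untreated Smn+/+ libraries. With treatment the groups did not overlap, at -0.41 ± 0.12 with an adjusted p of 0.226; without it they did, because the Smn+/+ library 1 was at 252. Averaged, the difference was -0.29 ± 0.09 with an adjusted p of 0.0717. Rpl6, a large subunit protein, was at 199, 227 and 228 FPKM in untreated Smn-/- libraries, against 269, 282 and 249 in untreated Smn+/+ libraries, at -0.29 ± 0.12 with an adjusted p of 0.307. Its treated groups overlapped. Rps4x and Rpl6 have no named pseudogene locus. Rpl24, at 3.92 to 4.08 FPKM in treated Smn-/- and 5.10 to 5.82 in treated Smn+/+ libraries, and Rpl29 are among the lowest of all 80 genes.

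**Figure D5:**
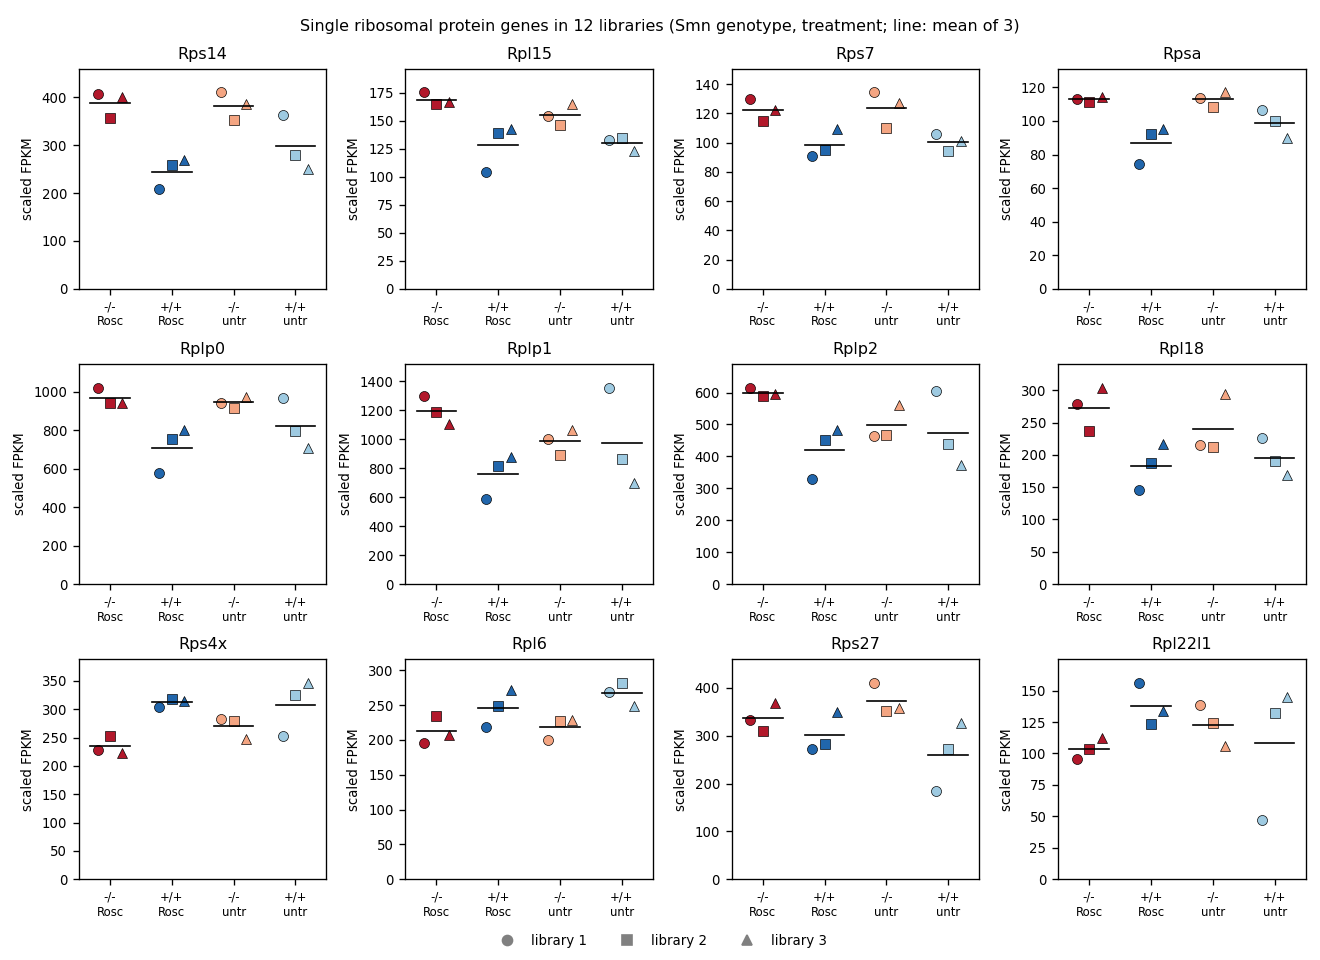
Scaled FPKM of 12 ribosomal protein genes in every library, by Smn genotype and treatment, with the mean of 3 as a line and each library number as a symbol; each axis starts at 0. Rpl15, Rps7 and Rpsa show no overlap of the genotypes in either treatment, the stalk genes Rplp0, Rplp1 and Rplp2 only with R-Roscovitine, and Rps4x is lower in treated Smn-/- libraries.

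R-Roscovitine moved no ribosomal protein gene past the threshold in either genotype, nor did any gene in the tables pass, so the background was 0.0% in both. In Smn-/- cultures 0 of 80 genes had an unadjusted p under 0.05, against 2.4% of all, and the median log2 difference of treated minus untreated was -0.01 over large and -0.02 over small subunit genes. By pair of libraries with the same number, the median over the 80 genes was -0.05, 0.03 and -0.0029. Treated libraries all lay above untreated libraries in 6 genes (7.50%), against 5.94% of all, and below in 4 (5.00%), against 4.9%. The 6 were Rpl13a, Rpl28, Rpl36, Rplp1, Rplp2 and Rps12, and the 4 were Rpl14, Rpl4, Rpl7l1 and Rps27l. Rps12 differed by 0.30 ± 0.20 (limma's adjusted p 0.999), at 162, 137 and 130.0 FPKM in treated Smn-/- libraries, against 123, 101 and 124 in untreated ones. Over 26 alternatives its difference ran from 0.026 to 0.37. The lowest unadjusted p values belonged to Rpl23 at -0.23 ± 0.12 and Rpl7l1 at -0.22 ± 0.13 in the large and to Rps4x at -0.20 ± 0.12 and Rps12 in the small subunit.

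In Smn+/+ cultures 63 of 80 genes were lower with R-Roscovitine, with a median of -0.09 in either subunit, and a single gene, Rps2, had an unadjusted p under 0.05 (1.25%, against 1.25% of all). The direction differed between pairs. In the pair of libraries 1 the median difference over the 80 genes was -0.35 and 61 genes were lower. In the pair of libraries 2 it was -0.04, again with 61 genes lower, and in the pair of libraries 3 it was 0.11, with 63 genes higher. Without libraries 1 the medians were 0.05 over large and 0.05 over small subunit genes, the opposite sign. Treated libraries all lay above untreated libraries for Rpl24 alone (1.25%, against 1.97% of all) and below for Rpl21 and Rps2 (2.50%, against 2.3%). Rps2, which binds mRNA near the entry channel, was at 10.7, 10.8 and 12.3 FPKM in treated Smn+/+ libraries, against 18.5, 12.7 and 12.8 in untreated ones, at -0.33 ± 0.15. The highest untreated value was again that of library 1, without which the difference was -0.16. Without both libraries 1 it was -0.13. Rpl13 and Rps9 differed by -0.24 ± 0.12 each, and by -0.10 and -0.08 without both libraries 1.

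A difference in the effect of treatment between the genotypes was not called for any ribosomal protein gene. The interaction passed in 0 of 80, with 0.0% of all tested genes called, and 0 had an unadjusted p under 0.05, against 1.91% of all. Its median was 0.07 over large and 0.05 over small subunit genes, and -0.04 and -0.07 without the Smn+/+ libraries 1. Averaged over genotypes, treatment called none either (0.0% of all), with medians of -0.05 in both subunits, and 0 genes at an unadjusted p under 0.05, against 1.63% of all.

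Some paralogues can replace their parent protein in the ribosome, and levels of each gene named as a paralogue were set beside the parent. Rpl22l1, the paralogue of Rpl22, had a mean of 118 FPKM, against 155 for Rpl22. It was at 95.7, 104 and 112 FPKM in treated Smn-/- libraries, against 156, 123 and 134 in treated Smn+/+ libraries, without overlap. Untreated Smn-/- libraries had 138, 125 and 106 FPKM, against 47.5, 132 and 145 in untreated Smn+/+ libraries, where library 1 was the lowest of all 12. The log2 difference was -0.40 ± 0.31 with and 0.33 ± 0.31 without treatment, and the interaction of -0.73 ± 0.43 did not pass. Without the untreated Smn+/+ library 1 the untreated difference turned to -0.18 and the interaction was -0.22. Without the Smn+/+ libraries 1 of both treatments the interaction was -0.13. Rps27l, a p53-responsive paralogue, was at 293 FPKM beside 318 for Rps27, and both had their lowest value, 184, in the untreated Smn+/+ library 1. Rpl7l1 was at 20.8 FPKM beside 527 for Rpl7. Rps12l1, annotated as a pseudogene, was listed at 600.1 FPKM beside 121 for Rps12.

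Some proteins act outside the ribosome. Rpl5 and Rpl11 bind MDM2 and stabilise p53 when assembly is disturbed. Rpl5 was at 114 to 126 FPKM in treated and 115 to 134 in untreated Smn-/- libraries, against 99.0 to 119 in treated and 95.4 to 115 in untreated Smn+/+ libraries, at 0.19 ± 0.08 averaged. Rpl11 differed by 0.03 ± 0.07. Rps6, the substrate of S6 kinase, differed by 0.03 ± 0.08, and both Rpl11 and Rps6 turned to -0.05 and -0.04 after rescaling to a common FPKM sum, and Rps6 to -0.03 without the Smn+/+ libraries 1. Rps19, the gene most often mutated in Diamond-Blackfan anaemia, differed by 0.23 ± 0.10. Over 25 alternatives its difference ran from 0.053 to 0.30. The ranges overlapped between the genotypes for Rpl5, Rpl11 and Rps6 in both treatments. Of the ribosome's genes outside the name rule, Fau differed by 0.13 ± 0.08, Rps3a1 by -0.09 ± 0.11 and Gnb2l1 by -0.04 ± 0.08, and none passed.

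Genes that build or use ribosomes were taken from lists. Of 39 tested ribosome biogenesis factors, 7 were higher in Smn-/- cultures with treatment and 10 without it, at median log2 differences of -0.15 and -0.10, so the median had the opposite sign to that of the ribosomal protein genes. None of them passed, averaged differences included, where 8 of 39 had an unadjusted p under 0.05, beside 23.2% of all tested genes. Those with the lowest p were the nucleolar GTPase gene Gnl2, at -0.33 ± 0.10 with an adjusted p of 0.0697 by limma, and Nop14, a factor of small subunit assembly, at -0.41 ± 0.12 with 0.0759. The 15 genes of RNA polymerase I, which transcribes the large ribosomal RNA precursor, had medians of 0.04 and 0.0058 with and without treatment and 0 calls. Of 37 translation factors 20 were higher in the averaged comparison, where 4.83% of all tested genes passed in either direction. Among these factors 1 fell, Pabpc1, the poly(A)-binding protein, at -0.37 ± 0.10 with an adjusted p of 0.0493 by limma. Tpt1, on the same list, was at 0.50 ± 0.14 with 0.0611. Its difference was 0.85 ± 0.20 with and 0.16 ± 0.20 without treatment. Of 25 genes of mTOR and Myc control 11 were higher and 0 passed, with Myc at -0.56 ± 0.16 and an adjusted p of 0.0646. Of 76 mitochondrial ribosomal protein genes 57 were higher, at a median of 0.07, and 1 fell, Mrps17, at -0.36 ± 0.07 with an adjusted p of 0.0222. With 1 mean per pair of libraries neither call held, at limma's adjusted p of 0.222 for Pabpc1 and 0.179 for Mrps17, nor did they without the Smn+/+ libraries 1, at 0.0695 and 0.0564.

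Markers of other cell types moved with genotype beside the ribosomal protein genes. In the averaged comparison 3.03% of all tested genes rose in Smn-/- cultures and 4.83% passed in either direction. Of neural progenitor markers 9 of 15 rose and of tested astroglial markers 6 of 11, at medians of 0.72 and 0.98. Of pan-neuronal markers 2 of 12 fell, at a median of -0.32 with 0 of 12 higher. With 1 mean per pair of libraries none of these markers passed, and without the Smn+/+ libraries 1 only 1 astroglial marker did. The summed astroglial markers were at 233 to 479 FPKM in treated and 270.4 to 463 in untreated Smn-/- libraries, against 147 to 205 in treated and 164 to 199 in untreated Smn+/+ libraries. The summed progenitor markers were at 3229 to 4047 FPKM in treated and 3181 to 4116 in untreated Smn-/- libraries, against 2217 to 3587 in treated and 3316 to 3723 in untreated Smn+/+ libraries. Astroglial sums did not overlap between the genotypes, and progenitor sums did. All 10 proliferation markers were higher, at a median of 0.16, and none passed. Their part in the differences of ribosomal protein genes was not tested.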

How the data were processed

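The authors deposited 12 tables of FPKM per gene with Cufflinks intervals, 1 per library; Cufflinks 2.2.1, Trim Galore 0.4.0 and FastQC 0.10.1 are listed, with GRCm38 as the build, per the submitters' processing notes. For alignment settings, strand and reads that fit several loci, the sources used here give nothing. Repeated identifiers were summed. Starts were read as counted from 0, because 29340 then match GENCODE M21 and 409 as written. FPKM tables carry no counts: low values fell on whole reads within 0.01 in only 35.8% to 39.2%, so no count test was run and depth is an estimate.

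FPKM were scaled by median-of-ratios factors. Genes with at least 1 FPKM in at least 3 libraries, small RNA genes left out, were tested on log2(scaled FPKM + 1), which understates changes of low genes. limma 3.58.1 (R 4.3.3; lmFit, eBayes with trend, two-sided) fitted 4 group means over 12 libraries in 7 comparisons, with Benjamini-Hochberg adjusted p under 0.05, and was tested on simulated data. Same-numbered treated and untreated libraries correlated over all tested genes at 0.237 to 0.596 within a genotype (6 pairs, all above 0.1), so the numbers were taken to pair them. Across genotypes the range was -0.0566 to 0.322, which overlaps the range within genotypes. The pairing comes from the libraries, not the labels. Named genes were those called, the 2 with the lowest p of each subunit in each simple comparison, the highest and lowest by level, paralogues with their parents, the stalk, genes with roles outside the ribosome, and the 2 with the lowest p of each pathway list. Genes shown for non-overlapping groups in both treatments were named after their values were seen. A few genes are not reported here by name. Members and lists were chosen with earlier results of these data known. Promoter sequences are RefSeq's; Python 3.11.15, pandas 2.3.3 and matplotlib 3.10.9 were used.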

Additional observations from a re-analysis of the deposited data

How the results depend on the processing

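In 26 settings, 509 of 551 alternative values of the subunit medians, counts and shares stayed within the spread or within 1.5 times. For medians the spread was the within-group SD, 0.081 (large) and 0.10 (small), so a small median could change sign and count as stayed. On leaving out 1 library, the Smn+/+ treatment median of the small subunit ran from -0.16 to 0.011. The interaction median of the large subunit ran from -0.0042 to 0.12. Both treatment medians in Smn-/- cultures also changed sign, while the genotype medians stayed positive. The count of 2 genes called in the averaged genotype comparison depended on the setting, as did the share of all tested genes called. It was 1 without scaling (4.59% of all), with a pseudocount of 0.1 (4.52%) or without the Smn+/+ libraries 1 (0.43%). It was 6 after quantile normalization (4.62%) or with the replicate number as a block (11.8%), 16 with library weights (13.5%), 0 without a filter on low values (0.00385%), 0 with pair means (replicate block by pair; 0.00667%), and 0 to 7 on leaving out 1 library. Without the untreated Smn+/+ library 1 it was 7 (3.58%): Rplp0, Rplp1, Rps14, Rps15, Rps16 and Rps21 were higher and Rps4x lower. Rps4x was also called lower in the block fit by number, and with library weights Rps4x, Rpl6 and Rpl24. With genes summed with their named pseudogene loci the count was again 2 (4.83%), but with Rps2 in place of Rpl15. Without treatment 1 gene, Rps14, passed with library weights, and with R-Roscovitine 1, Rps14, with the replicate number as a block. In no other comparison did either replicate block change a call of a ribosomal protein gene; pair means ended those of Pabpc1, Mrps17 and the marker genes.

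Of 48 differences of named genes, 6 changed sign under some setting. Rescaling to a common FPKM sum gave -0.046 for Rpl11 and -0.045 for Rps6 (averaged) and -0.0051 for Rplp1 (untreated). Library weights gave -0.040 for Rps6 and -0.054 for Rpl22l1 (untreated). Without the Smn+/+ libraries 1, Rps6 was at -0.035, untreated Rpl22l1 at -0.17 and the interaction of Rplp0 at -0.021. Leaving out 1 library gave ranges of -0.0087 to 0.073 for Rpl11 and -0.0026 to 0.077 for Rps6, and without treatment -0.14 to 0.34 for Rplp1, -0.057 to 0.29 for Rplp2 and -0.18 to 0.62 for Rpl22l1.

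Rescaling to a common FPKM sum put the treated genotype median of the large subunit at 0.061, with that of all tested genes at -0.090, so the 80 genes stood 0.16 above all genes, against 0.17 otherwise. The genes without overlap were then 5 higher without treatment (6.25%, against 6.2% of all), and 19 higher (23.8%, against 6.57%) and 7 lower (8.75%, against 13.0%) with it. The treatment medians in Smn+/+ cultures became 0.0074 (large) and 0.022 (small) with library weights, and 0.049 and 0.047 without libraries 1, where the interaction medians were -0.039 and -0.070. Without libraries 1, 36 genes lay higher (45.0%, against 15.5% of all) and 5 lower (6.25%, against 16.2%) without treatment, and 8 lower (10%, against 11.7%) with it. These fits without libraries 1, the sums with pseudogene loci and the overlap settings were chosen after seeing the data. With mitochondrially encoded genes and Gm26924 out of the denominator, large subunit shares were 3.11%, 3.07%, 2.78% and 3.01% in treated and untreated Smn-/- and treated and untreated Smn+/+ cultures, and small subunit shares 2.68%, 2.76%, 2.52% and 2.63%.

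Reads of genes and their pseudogenes cannot be separated in FPKM. At these levels the median half-width of the Cufflinks intervals, 4.50% to 4.99% by library, was smaller than the within-group coefficients of variation of 9.65% and 10.3% (medians over large and small subunit genes).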
